A study of Mus musculus with 19 samples.

Results

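The Wnt genes were followed through RNA-seq libraries of 15 skin tumours and 4 normal skin samples of the mouse. They were all protein-coding genes of the table with a Wnt symbol, the Frizzled receptors Fzd1 to Fzd10, the secreted frizzled-related (Sfrp) and Dickkopf (Dkk) genes, Wif1, and the transcriptional targets Axin2 and Lef1. This gave 40 of 34807 genes: 19 ligands, 10 receptors, 9 antagonists and 2 targets. Frzb, also known as Sfrp3, does not carry an Sfrp symbol and was kept with the wider pathway genes.

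The tumours carried BRAFV600E, an active form of the kinase BRAF, which the tamoxifen-dependent recombinase CreERT2 turned on. There were 6 Ivl:BRAFV600E tumours, 5 K5:BRAFV600E tumours, 4 K14:BRAFV600E tumours and 4 samples of WT skin, all from female mice, and the labels give induction between 7 and 20 weeks of age and call the tumours squamous cell carcinoma. Per the study's methods the mice had a C57BL/6J background, and the K5 and K14 tumours, here K5/K14 tumours, were compared as 1 group of 9. The K5 and K14 promoters drive Cre in basal keratinocytes, hair follicles included, while the Ivl promoter drives it in suprabasal and some basal keratinocytes. The methods name tamoxifen for Ivl mice and 4-hydroxytamoxifen for K5 and K14 mice, and the study saw Ivl lesions at several body sites. The study also reports that Ivl tumours appeared much later after induction and grew more slowly than K5 and K14 tumours. Cell of origin, inducing agent, time from induction and speed of growth therefore cannot be told apart here, and the labels give no body site. Whether the libraries of a group came from separate animals is not stated, so the p-values measure the spread between these samples.

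Wnt ligands are secreted, lipid-modified proteins that bind Frizzled receptors. With an Lrp co-receptor they keep beta-catenin from being destroyed, and beta-catenin then acts with TCF/LEF factors on target genes. Sfrp proteins and Wif1 bind the ligands outside the cell, and most Dkk proteins block the co-receptor. In skin the pathway is best known for building hair follicles and starting their growth phase, and for its part in the basal epidermis.

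Totals per library ran from 45715309 to 72609771 counts, and values are given in CPM, counts scaled to the same library size by TMM. The authors had adjusted the counts for a sequencing batch that the labels do not give. Their supplement names batches of 4 and 15 libraries. Ivl tumours 1 to 3 and K5 tumour 1 stood apart: their mean CPM came within 0.1 on the log2 scale of that of the remaining 15 in 96.6% of 13954 genes, which ranks 1 of 3876 possible sets of 4, against 64.1% for the next. This set holds no skin, while the remaining 15 hold all 4 skin samples. For tumours of the set, nearness to skin in a gene and an effect of the adjustment cannot be told apart. Tests are therefore given over all 19 libraries and over the 15 libraries outside this set of 4, which hold 3 Ivl and 8 K5/K14 tumours. A gene was called when its edgeR quasi-likelihood p, adjusted over all 32031 genes tested, was under 0.05. Basal keratinocyte markers summed to 10432 to 65934 CPM in the tumours and 3683 to 7543 CPM in skin, so every library held epidermal RNA. Ivl tumour 1 held the lowest of the tumour sums, and the other tumours held at least 32242 CPM. In K5/K14 tumours 5 of 5 basal and 4 of 4 suprabasal keratinocyte markers were called higher than in skin, beside 23.2% of all genes. In Ivl tumours 3 of 5 and 4 of 4 were, beside 20.4% of all genes. The part of keratinocyte content in the Wnt values was not tested. In whole tissue, fewer cells of a type and less RNA per cell cannot be told apart.

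For orientation, the 250 bases before the RefSeq start site (build GRCm38.p6) are shown for 4 genes the results turn on: Axin2 and Lef1 as the targets, Wnt3a as a ligand that rose and Fzd7 as a receptor that fell. Capitals mark GC boxes, GGGCGG or CCGCCC on the other strand, the letters bound by Sp factors.
Axin2, chr11:108920099-108920348, plus strand: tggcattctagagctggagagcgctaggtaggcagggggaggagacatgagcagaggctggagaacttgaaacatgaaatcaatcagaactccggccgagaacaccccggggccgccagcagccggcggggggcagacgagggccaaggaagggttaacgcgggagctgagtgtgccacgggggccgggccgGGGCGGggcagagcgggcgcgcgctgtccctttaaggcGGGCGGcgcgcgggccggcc
Lef1, chr3:131110047-131110296, plus strand: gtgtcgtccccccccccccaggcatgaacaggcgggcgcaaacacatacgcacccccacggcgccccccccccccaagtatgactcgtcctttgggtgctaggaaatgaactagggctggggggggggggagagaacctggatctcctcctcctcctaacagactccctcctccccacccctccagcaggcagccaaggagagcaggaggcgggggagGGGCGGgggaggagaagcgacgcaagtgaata
Wnt3a, chr11:59290752-59291001, minus strand: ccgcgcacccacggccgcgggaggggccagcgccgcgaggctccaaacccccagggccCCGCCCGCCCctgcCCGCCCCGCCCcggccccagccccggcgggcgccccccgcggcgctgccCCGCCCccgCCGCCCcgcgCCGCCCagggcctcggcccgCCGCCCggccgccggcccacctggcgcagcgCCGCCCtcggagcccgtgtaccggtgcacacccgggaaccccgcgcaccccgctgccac
Fzd7, chr1:59481897-59482146, plus strand: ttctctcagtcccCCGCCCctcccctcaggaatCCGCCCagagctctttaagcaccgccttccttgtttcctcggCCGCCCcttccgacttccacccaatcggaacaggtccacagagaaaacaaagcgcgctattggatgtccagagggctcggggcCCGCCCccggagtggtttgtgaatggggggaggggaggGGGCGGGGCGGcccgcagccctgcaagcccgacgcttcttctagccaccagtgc
The stretches hold 2 GC boxes before Axin2, 1 before Lef1, 9 before Wnt3a and 6 before Fzd7, overlapping boxes counted separately. None of the 4 holds the TCF/LEF letters CTTTGAA or CTTTGAT or the AP-1 letters TGANTCA on either strand. RefSeq windows of 300 bases, 50 of them past the start, were at hand for 28 of the 40 genes. A GC box stood in the first listed window of 22 of these 28 genes (78.6%), against 35.9% of 27025 genes in the RefSeq table. Either TCF/LEF core stood in 2 of them (7.14%, against 8.77%), and the AP-1 letters in 1 (3.57%, against 7.93%).

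In K5/K14 tumours against normal skin 26 of the 39 Wnt genes tested were called, 8 higher and 18 lower, where 62.2% of all genes tested were called, 23.2% higher and 38.9% lower. In Ivl tumours against normal skin 14 were called, 6 higher and 8 lower, where 35.9% of all genes were called, 20.4% higher and 15.5% lower. Both shares lie near those of all genes, so the number of Wnt genes called does not set them apart. Values of 15 of the 39 did not overlap between K5/K14 tumours and skin, 6 above and 9 below, where 41.4% of all genes tested did not, 16.7% above and 24.6% below. Between Ivl tumours and skin 4 did not overlap, 3 above and 1 below, where 22.2% of all genes did not, 13.2% above and 9.01% below. The median log2 fold change of the 39 genes was −0.67 in K5/K14 tumours and −0.59 in Ivl tumours, beside −0.60 and −0.46 over all genes tested. Over the 15 libraries, 29 were called in K5/K14 tumours (8 higher and 21 lower, beside 66.2% of all genes, 23.9% higher and 42.3% lower) and 22 in Ivl tumours (5 higher and 17 lower, beside 54.9% of all genes, 22.2% higher and 32.7% lower). All 26 K5/K14 calls and 13 of the 14 Ivl calls were made in the same direction over the 15 libraries; the exception was Dkk3 in Ivl tumours. Both comparisons share the 4 skin samples. Wnt1, the mammary oncogene that gave the family its name, was not tested, since it had at most 4 counts, in 2 skin samples, and 0 in every tumour.

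**Figure D1:**
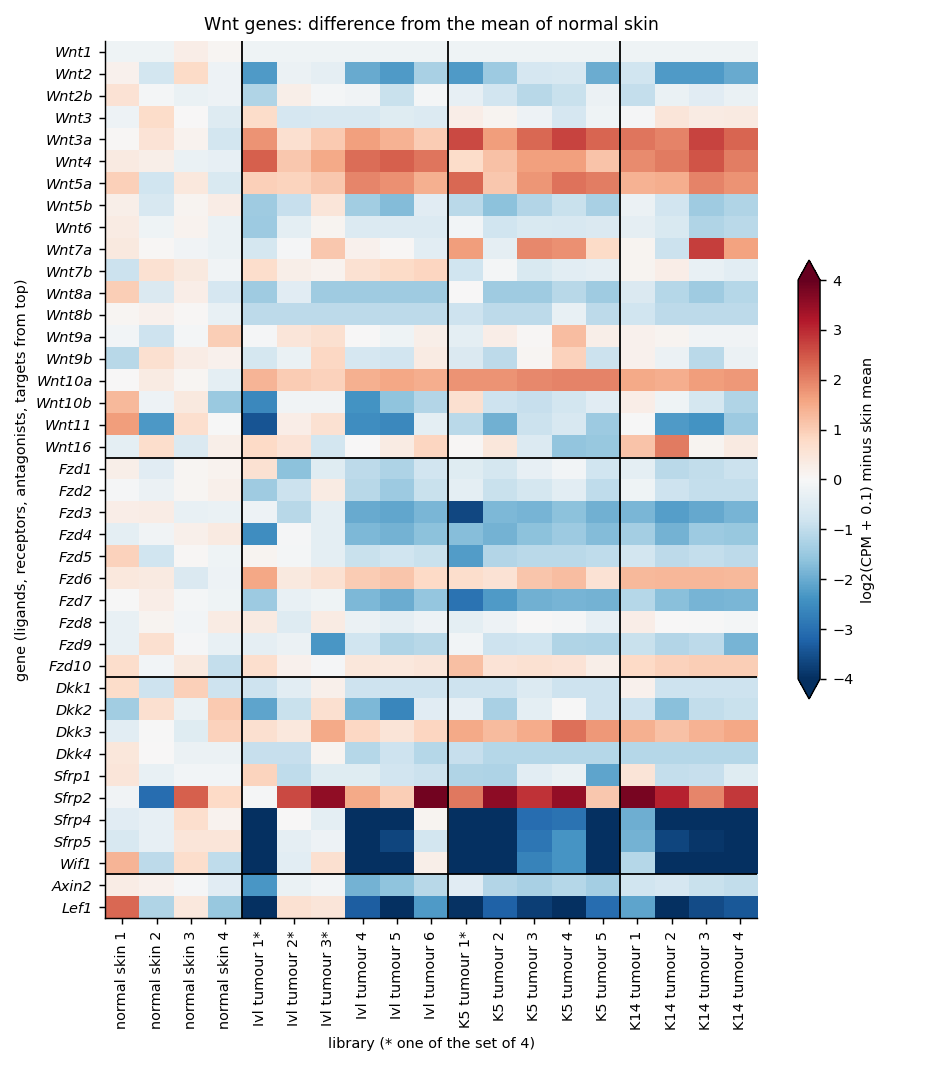
Difference of each library from the mean of the 4 skin samples, on the log2(CPM + 0.1) scale, for the 40 Wnt genes (rows, by role) and 19 libraries (columns; an asterisk marks the set of 4), with the colour scale ending at −4 and 4. Wnt3a, Wnt4 and Wnt10a are red in all 15 tumours, while Fzd3, Fzd4 and Fzd7 are blue in the 9 K5/K14 tumours. For Fzd4 and Fzd7, Ivl tumours 2 and 3 are the palest of the tumours.

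The ligands split. Wnt3a, Wnt4, Wnt5a and Wnt10a rose in both tumour groups, Wnt7a rose in K5/K14 tumours, and several other ligands fell in 1 or both groups. Of the 18 ligands tested, 4 were called higher and 3 lower in Ivl tumours, and 5 higher and 6 lower in K5/K14 tumours. Of all genes tested 20.4% were called higher and 15.5% lower in Ivl tumours, and 23.2% and 38.9% in K5/K14 tumours. The shares of ligands called, 38.9% and 61.1%, lie near the 35.9% and 62.2% of all genes, so these counts do not set the ligands apart. Wnt10a, a ligand whose loss in people disturbs hair, teeth and sweat glands, had the smallest adjusted p of the set in both comparisons. It stood at 18.1, 22.3, 18.7 and 13.4 CPM in normal skin 1 to 4, at 34.2, 46.7 and 52.6 CPM (lowest, median and highest, as in all such triplets here) in the 6 Ivl tumours and at 48.7, 61.6 and 70.7 CPM in the 9 K5/K14 tumours. Every tumour lay above every skin sample. The log2 fold change against skin was 1.28 ± 0.16 (SE; adjusted p = 1.9e-05) in Ivl tumours and 1.75 ± 0.15 (adjusted p = 7.57e-07) in K5/K14 tumours.

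Wnt4, known for kidney and ovary formation and expressed in basal epidermis, was the ligand with the largest rise in Ivl tumours. Its level was 51.6, 47.6, 33.4 and 31.8 CPM in skin 1 to 4, 85.2, 185 and 212 CPM in Ivl tumours and 67.4, 124 and 229 CPM in K5/K14 tumours. No tumour reached down to the skin range. It rose by 2.01 ± 0.33 on the log2 scale (adjusted p = 8.65e-05) in Ivl tumours and by 1.71 ± 0.31 in K5/K14 tumours (adjusted p = 0.000145). Wnt3a, a ligand widely used to switch on beta-catenin in culture, was at 4, 5.72, 4.25 and 2.29 CPM in skin, 6.03, 9.27 and 13.8 CPM in Ivl tumours and 12.5, 19.9 and 25.7 CPM in K5/K14 tumours. Again all 15 tumours lay above the 4 skin samples, with log2 fold changes of 1.26 ± 0.27 (adjusted p = 0.00113) and 2.31 ± 0.27 (adjusted p = 2.59e-06). In fold terms Wnt3a was 2.4 times skin in Ivl tumours and 4.94 times skin in K5/K14 tumours.

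Wnt5a, which mostly signals without beta-catenin and steers cell movement and polarity, varied more in skin. Skin 1 to 4 had 87.3, 25.8, 60.1 and 29.5 CPM, the Ivl tumours 83.4, 108 and 174 CPM, and the K5/K14 tumours 93.7, 157 and 218 CPM. Skin 1 lay above Ivl tumours 1 and 2, at 86.1 and 83.4 CPM, whereas the K5/K14 tumours did not overlap skin. Its rise on the log2 scale was 1.24 ± 0.33 in Ivl tumours (adjusted p = 0.00623) and 1.64 ± 0.32 in K5/K14 tumours (adjusted p = 0.000282). Over the 15 libraries the 4 rising ligands kept their calls in both comparisons, with log2 fold changes from 1.32 to 2.24 in Ivl tumours and 1.57 to 2.26 in K5/K14 tumours. Wnt7a, at a far lower level, was called in K5/K14 tumours (log2 fold change 1.69 ± 0.65, adjusted p = 0.03), where it ranged from 0.115 to 2.54 CPM against 0.224 to 0.409 CPM in skin.

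Among the falling ligands, Wnt8b had the smallest adjusted p in Ivl tumours. It was detected weakly in skin, at 0.119, 0.135, 0.112 and 0.0683 CPM (7 to 12 counts a library), had 0 counts in all 6 Ivl tumours, and reached at most 0.07 CPM in the K5/K14 tumours, of which 6 of 9 had 0 counts. The skin samples summed to 40 counts and the Ivl tumours to 0, so its level was at least 12-fold lower in Ivl tumours, taking 3 counts over the group as the floor. In edgeR it was called in Ivl tumours (adjusted p = 0.00128) and in K5/K14 tumours (log2 fold change −2.98 ± 0.82, adjusted p = 0.00624), and K5 tumour 4 overlapped skin. Without K5 tumour 4 the fitted value of Wnt8b in K5/K14 tumours was −3.94 (adjusted p = 0.000743). Wnt8a also fell in both groups, and Wnt10b, known for hair follicle growth and for holding back fat cell formation, fell in Ivl tumours (−1.37 ± 0.53, adjusted p = 0.0483). Wnt2, Wnt5b, Wnt6 and Wnt11 fell in K5/K14 tumours, with log2 fold changes from −2.39 to −0.67. Wnt2b, Wnt3, Wnt7b, Wnt9a, Wnt9b and Wnt16 were called in neither comparison with skin over all 19 libraries, and Wnt2b fell in K5/K14 tumours over the 15 (log2 fold change −0.64, adjusted p = 0.0307).

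**Figure D2:**
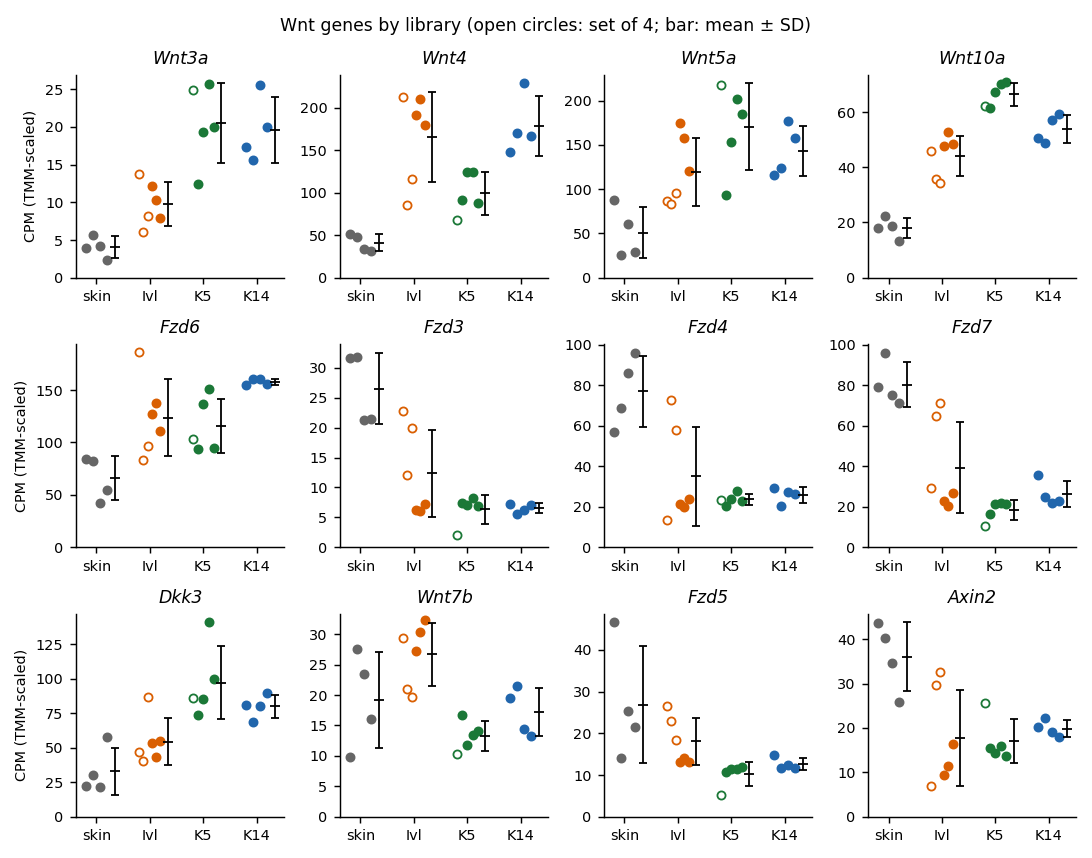
CPM of 12 Wnt genes in each library (points; open circles are the set of 4) of normal skin (n = 4), Ivl (n = 6), K5 (n = 5) and K14 tumours (n = 4), with the mean ± SD of each group beside the points and every axis starting at 0. For Wnt3a, Wnt4 and Wnt10a all 15 tumours lie above the skin samples, and for Fzd3, Fzd4, Fzd7 and Axin2 all 9 K5/K14 tumours lie below them.

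Among the receptors Fzd6 rose and Fzd2, Fzd3, Fzd4 and Fzd7 fell in both tumour groups. In K5/K14 tumours 8 of the 10 Frizzled genes were called, 2 higher (Fzd6 and Fzd10) and 6 lower (Fzd5 and Fzd9 besides these 4), where 23.2% of all genes were called higher and 38.9% lower. In Ivl tumours 5 were called, 1 higher and 4 lower, where 20.4% of all genes were called higher and 15.5% lower. Fzd6, known for aligning hair follicles along the body axis, stood at 84.3, 82.2, 42.4 and 54.9 CPM in skin, 83.1, 119 and 187 CPM in Ivl tumours and 93.9, 151 and 161 CPM in K5/K14 tumours. The K5/K14 tumours did not overlap skin, while Ivl tumour 2, at 83.1 CPM, lay just under skin 1. Fzd6 rose by 0.91 ± 0.24 on the log2 scale in Ivl tumours (adjusted p = 0.00669) and by 1.03 ± 0.23 in K5/K14 tumours (adjusted p = 0.000985).

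Fzd7, a receptor found on many stem and progenitor cells, was at 79.2, 96.1, 75.3 and 71.1 CPM in skin and at 10.3, 21.7 and 35.9 CPM in K5/K14 tumours. The log2 fold change of −1.88 ± 0.30 (adjusted p = 4.22e-05) corresponded to a 3.69-fold lower level, and no K5/K14 tumour overlapped skin. In the 6 Ivl tumours it was at 29.4, 65.1, 71.5, 23.1, 20.2 and 27 CPM, in the order of their numbers. Ivl tumours 2 and 3 lay close to skin and the other 4 within the K5/K14 range, and the log2 fold change was −1.03 ± 0.33 (adjusted p = 0.0217). Without skin 2 this Ivl call of Fzd7 was lost (adjusted p = 0.0654). Fzd7 fell by 1.78 on the log2 scale in Ivl tumours over the 15 libraries (adjusted p = 5.74e-06).

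Fzd4, the receptor of norrin in retinal vessels, showed the same spread. Skin held 57, 68.6, 85.8 and 96 CPM, the K5/K14 tumours 20.4, 24 and 29.3 CPM, and Ivl tumours 1 to 6 held 13.5, 72.7, 57.9, 21.4, 20.1 and 23.9 CPM. Ivl tumours 2 and 3 lay inside the skin range and the other 4 below it. Fzd4 had log2 fold changes of −1.65 ± 0.31 in K5/K14 tumours (adjusted p = 0.000204) and −1.14 ± 0.34 in Ivl tumours (adjusted p = 0.0144, and 0.0666 in a fit of Ivl tumours and skin alone). For Fzd3, known for guiding axons and for cell polarity in the hair follicle, skin held 31.6, 31.8, 21.3 and 21.4 CPM, the Ivl tumours 22.7, 12.1, 19.9, 6.29, 6.07 and 7.24 CPM in order, and the K5/K14 tumours 2, 7.13 and 8.21 CPM. Ivl tumours outside the set of 4 lay at the K5/K14 level and those inside it higher, with Ivl tumour 1 inside the skin range. It was 4.13-fold lower than skin in K5/K14 tumours (log2 fold change −2.05 ± 0.33, adjusted p = 4.9e-05) and 2.14-fold lower in Ivl tumours (adjusted p = 0.0265). Leaving out any 1 of Ivl tumours 4 to 6 or of skin 1 and 2 ended the Ivl call of Fzd3 (adjusted p from 0.0571 to 0.0735), whereas over the 15 libraries it fell by 2.02 on the log2 scale (adjusted p = 4.96e-07).

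Fzd5, a receptor of gut and eye development, was called over all 19 libraries in K5/K14 tumours and not in Ivl tumours, with an adjusted p of 0.117 for the difference between both tumour groups. It stood at 46.6, 14, 25.3 and 21.5 CPM in skin, 13, 16.3 and 26.6 CPM in Ivl tumours and 5.12, 11.6 and 14.7 CPM in K5/K14 tumours. Skin 2, at 14 CPM, lay within both tumour ranges, and skin 3 and 4 within that of the Ivl tumours. Its log2 fold change was −1.25 ± 0.26 in K5/K14 tumours (adjusted p = 0.000592) and −0.57 ± 0.29 in Ivl tumours (adjusted p = 0.122), where it was called over the 15 libraries (adjusted p = 0.00679). Fzd2 fell in both groups (−0.77 ± 0.28 in Ivl and −0.68 ± 0.25 in K5/K14 tumours). Fzd1 had log2 fold changes of −0.59 and −0.63 that were called over the 15 libraries but not over all 19, and Fzd8 was called in no comparison.

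Compared per kilobase of exon, the same 3 ligands led in every group. Wnt4, Wnt10a and Wnt5a were at 9.79 ± 2.38 (SD, n = 4), 7.33 ± 1.47 and 6.48 ± 3.68 CPM per kb in skin, an order that lay within these SDs. In K5/K14 tumours they were at 32 ± 12 (SD, n = 9), 24.7 ± 3.18 and 20.2 ± 5.28 CPM per kb, and Wnt3a ranked 4 among ligands at 7.28 ± 1.68 CPM per kb, where in skin it ranked 10 at 1.47 ± 0.509 CPM per kb. In Ivl tumours Wnt4 led at 39.5 ± 12.6 CPM per kb (SD, n = 6), apart from Wnt10a at 17.9 ± 3 and Wnt5a at 15.3 ± 4.94, and Wnt3a ranked 6 at 3.53 ± 1.05 CPM per kb. Among the receptors Fzd1 led in skin at 20.8 ± 3.98 CPM per kb, followed within 1 SD by Fzd7 at 17.7 ± 2.42 and then Fzd6 at 13.7 ± 4.28. In tumours Fzd6 led, at 25.7 ± 7.6 CPM per kb in Ivl and 27.9 ± 6 in K5/K14 tumours, and Fzd7 ranked 4 at 8.69 ± 5.01 and 4.81 ± 1.5 CPM per kb.

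**Figure D3:**
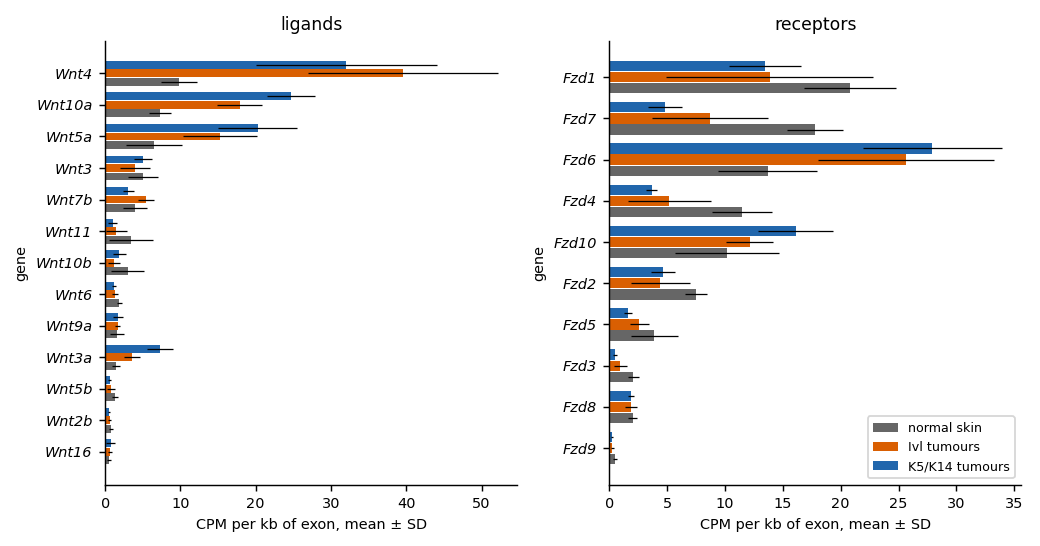
Mean CPM per kilobase of exon ± SD (horizontal bars from 0) of ligands and receptors that reached 0.4 in at least 1 group, in normal skin (n = 4), Ivl (n = 6) and K5/K14 tumours (n = 9). Wnt4 is the longest ligand bar in each group, and among receptors Fzd1 is longest in skin and Fzd6 in both tumour groups.

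Of the 9 antagonists 5 were called in K5/K14 tumours, Dkk3 higher and Dkk4, Sfrp4, Sfrp5 and Wif1 lower, a share near the 62.2% of all genes. In Ivl tumours 1 of 9 was called over all 19 libraries, Dkk3, higher, where 35.9% of all genes were called, 20.4% higher and 15.5% lower. The 15 libraries gave 2 other calls there, both lower: Dkk2 (log2 fold change −1.62, adjusted p = 0.0277) and Dkk4 (adjusted p = 0.0186). Over these 15 libraries 54.9% of all genes were called in Ivl tumours, 22.2% higher and 32.7% lower. Dkk3, a divergent Dickkopf that does not block the co-receptor as its relatives do, stood at 22.3, 30, 21.6 and 57.9 CPM in skin, 40.2, 50.2 and 86.7 CPM in Ivl tumours and 68.7, 85 and 141 CPM in K5/K14 tumours. All K5/K14 tumours lay above skin, and skin 4 lay within the Ivl range. Dkk3 rose by 1.44 ± 0.26 on the log2 scale in K5/K14 tumours (adjusted p = 0.000171) and by 0.72 ± 0.27 in Ivl tumours (adjusted p = 0.0434). The Ivl call of Dkk3 ended over the 15 libraries (0.62 ± 0.30, adjusted p = 0.0922) and on leaving out any 1 of Ivl tumours 3, 4 or 6, K5 tumour 3, K14 tumours 1 or 4, or skin 1 to 3 (adjusted p from 0.051 to 0.135).

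Dkk4, a co-receptor blocker and Wnt target of the forming hair follicle, was close to the limit of detection. It had 0.198, 0.124, 0.0843 and 0.0878 CPM in skin, 0, 0.0159 and 0.138 CPM in Ivl tumours, and 0 in 8 of 9 K5/K14 tumours. The skin samples summed to 44 counts and the K5/K14 tumours to 1, a ratio of levels of 49.3 with a counting interval from 8.39 to 1989 (95%, exact, counting error only). It was called in K5/K14 tumours (edgeR adjusted p = 0.000189) and not in Ivl tumours over all 19 libraries (adjusted p = 0.0794), where Ivl tumour 3 reached the skin range.

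Wif1, which binds Wnt ligands outside the cell, stood at 29, 5.49, 18.4 and 5.61 CPM in skin and at 0.13, 0.429 and 5.15 CPM in K5/K14 tumours, with K14 tumour 1 highest and just under skin. Ivl tumours 1 to 6 had 0.0768, 8.39, 17.9, 0.556, 0 and 13.5 CPM, so 3 of them lay inside the skin range and 3 near 0. Wif1 had a log2 fold change of −3.60 ± 1.16 in K5/K14 tumours (adjusted p = 0.0132, and −4.44 without K14 tumour 1) and of −1.12 ± 1.28 in Ivl tumours (adjusted p = 0.473). Sfrp4 and Sfrp5, 2 further ligand binders singled out after their values were seen, ran alongside Wif1: both were above 2 CPM in every skin sample and in Ivl tumours 2, 3 and 6, and at most 1.65 CPM in every other tumour. They fell in K5/K14 tumours (Sfrp4 −4.25 ± 1.34, adjusted p = 0.0116; Sfrp5 −3.87, adjusted p = 0.00585), with no overlap with skin. Sfrp1, Sfrp2, Dkk1 and Dkk2 were called in neither comparison over all 19 libraries. Sfrp2 had log2 fold changes of 1.68 ± 0.87 and 1.99 ± 0.85, the latter at adjusted p = 0.0506.

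Both targets were lower in K5/K14 tumours. Axin2, a brake on beta-catenin that is itself switched on by Wnt signalling, was at 43.7, 40.3, 34.5 and 25.8 CPM in skin and at 13.6, 17.9 and 25.6 CPM in K5/K14 tumours. K5 tumour 1, at 25.6 CPM, lay just below the lowest skin sample and the other 8 further below. In Ivl tumours 1 to 6 it was at 7.04, 29.6, 32.7, 9.51, 11.5 and 16.4 CPM, with tumours 2 and 3 inside the skin range. Axin2 fell by 0.98 on the log2 scale (SE 0.30, adjusted p = 0.00905) in K5/K14 tumours and by 1.02 (SE 0.33, adjusted p = 0.0221) in Ivl tumours. Leaving out skin 1 or skin 2 ended the Ivl call (adjusted p = 0.0661 and 0.0576), while over the 15 libraries Axin2 fell by 1.53 on the log2 scale in Ivl tumours (adjusted p = 4.67e-05). In each of the 9 K5/K14 tumours Axin2 lay below all 4 skin samples while Wnt3a, Wnt4 and Wnt10a lay above them.

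Lef1, the DNA-binding partner of beta-catenin that marks the growing hair matrix, was at 58.7, 5.1, 16 and 4.14 CPM in skin and at 0.392, 0.91 and 2.69 CPM in K5/K14 tumours. The groups did not overlap, with K14 tumour 1 highest among the tumours, and the log2 fold change was −4.29 ± 0.90 (adjusted p = 0.000711), a 19.6-fold lower level. Skin 1 weighed on this value: without it Lef1 was 7.85-fold lower (log2 fold change −2.97, adjusted p = 0.00898). Ivl tumours 1 to 6 were at 0.184, 18.4, 16.7, 1.11, 0.539 and 2.43 CPM. In the adjusted counts Ivl tumours 2 and 3, both of the set of 4, reached skin levels, and the other 4 lay at those of K5/K14 tumours. Over all 19 libraries Lef1 was not called in Ivl tumours (−1.68 ± 0.98, adjusted p = 0.17). With the 15 libraries alone it was (−3.94 ± 0.97, adjusted p = 0.00394).

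Among the tumours, hair markers were high in the same libraries as several of these genes. The 9 measured markers of hair shaft and matrix, such as the hair keratin Krt35 and the hair matrix factor Hoxc13, summed to 2335, 21.8, 918 and 759 CPM in skin 1 to 4. In Ivl tumours 1 to 6 they summed to 28.6, 1285, 358, 122, 33.8 and 460 CPM, and in K14 tumour 1 to 736 CPM, while the other 8 K5/K14 tumours held 21.9 to 56.3 CPM. The libraries with a high sum, Ivl tumours 2, 3 and 6 and K14 tumour 1, were also those highest for Wif1, Sfrp4 and Sfrp5 in their groups. The same 4 tumours were also the highest of all tumours for skeletal muscle and sebaceous markers, given below. Within skin, Sfrp4 and Sfrp5 did not follow the order of the hair sums. Skin 1, with the highest hair sum, had the lowest Sfrp4 and Sfrp5 of skin (4.83 and 2.43 CPM). Skin 2, with the lowest hair sum, still held 5.25 CPM of Sfrp4. Wif1 did follow that order, at 29, 5.49, 18.4 and 5.61 CPM in skin 1 to 4. Of the 9 hair shaft and matrix markers, 2 were called lower in K5/K14 tumours and 0 in Ivl tumours (2 over the 15 libraries), and Krt31, Krt33a, Krt34, Krt35 or Krt86 was at 0 in some of the tumours and Krt34 in skin 2. Markers of hair follicle stem cells and outer sheath summed to 533 to 1595 CPM in skin, 187 to 832 CPM in Ivl tumours and 136 to 367 CPM in K5/K14 tumours, with 6 of 6 called lower in K5/K14 and 2 of 6 in Ivl tumours. Beside these counts of both hair lists, 38.9% of all genes tested were called lower in K5/K14 tumours. In Ivl tumours 15.5% were called lower, and 32.7% over the 15 libraries. The part of hair follicle content in the values of Lef1, Wif1, Sfrp4, Sfrp5, Axin2 and the Frizzled genes was not tested.

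**Figure D4:**
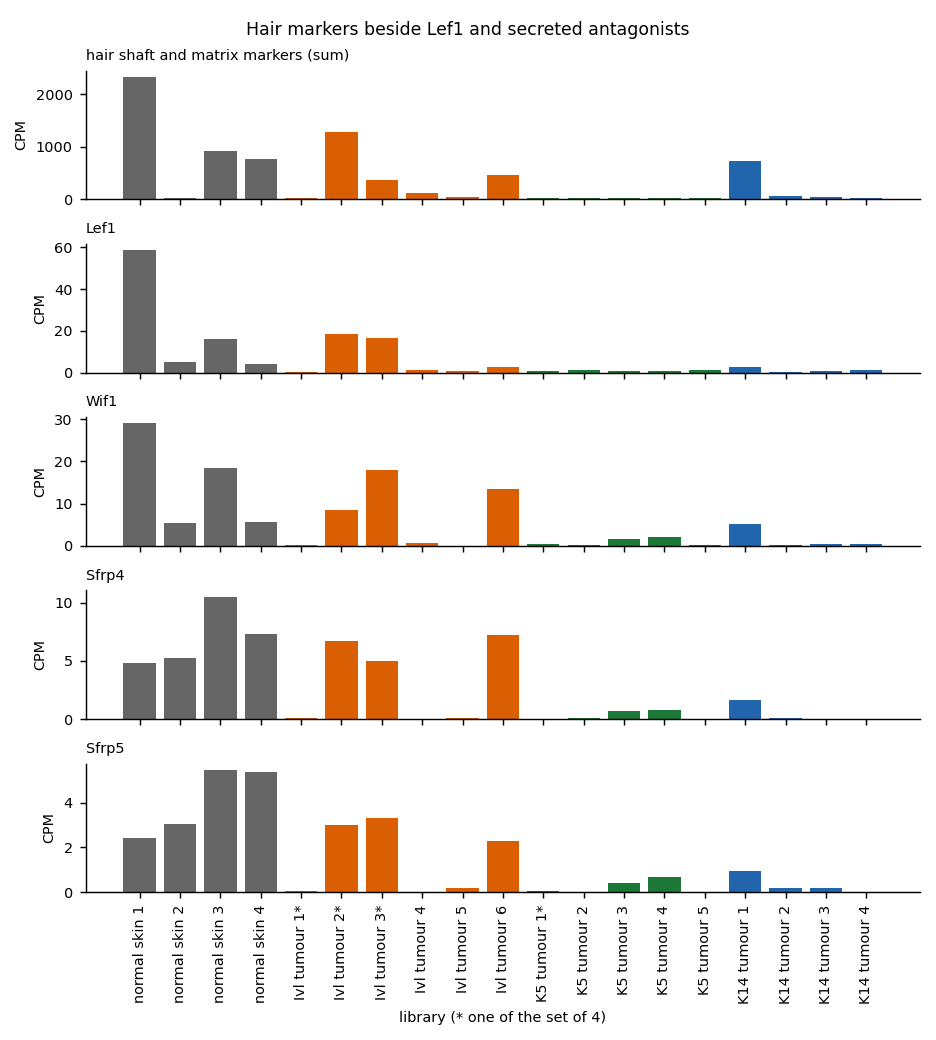
Summed CPM of 9 hair shaft and matrix markers (top) and CPM of Lef1, Wif1, Sfrp4 and Sfrp5 (below) in each of the 19 libraries (bars from 0; an asterisk marks the set of 4). Among tumours, Ivl tumours 2, 3 and 6 and K14 tumour 1 hold the 4 highest bars for the hair sum, Lef1, Sfrp4 and Sfrp5, while skin 2, with a hair sum of 21.8 CPM, holds 5.1 CPM of Lef1.

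Summed markers of other cell types shifted as well. Skeletal muscle markers summed to 2065 to 6026 CPM in skin and 4.95 to 325 CPM in K5/K14 tumours. There 5 of 5 were called lower, beside 38.9% of all genes tested. In Ivl tumours the muscle sum ranged from 4.09 to 3622 CPM. Highest of the tumours were Ivl tumours 2, 3 and 6 (3622, 1094 and 340 CPM) and K14 tumour 1 (325 CPM). Sebaceous markers were highest in the same tumours, at 1765, 2455, 420 and 669 CPM in that order, and at most 316 CPM in the others. In skin they summed to 1248 to 3664 CPM. Neutrophil markers summed to 8.69 to 35.9 CPM in skin, 98.7 to 6555 CPM in Ivl tumours and 1573 to 6317 CPM in K5/K14 tumours. Fibroblast markers spanned 815 to 18176 CPM in skin, which overlapped both tumour groups. The part of these shifts in the Wnt values was not tested.

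**Figure D5:**
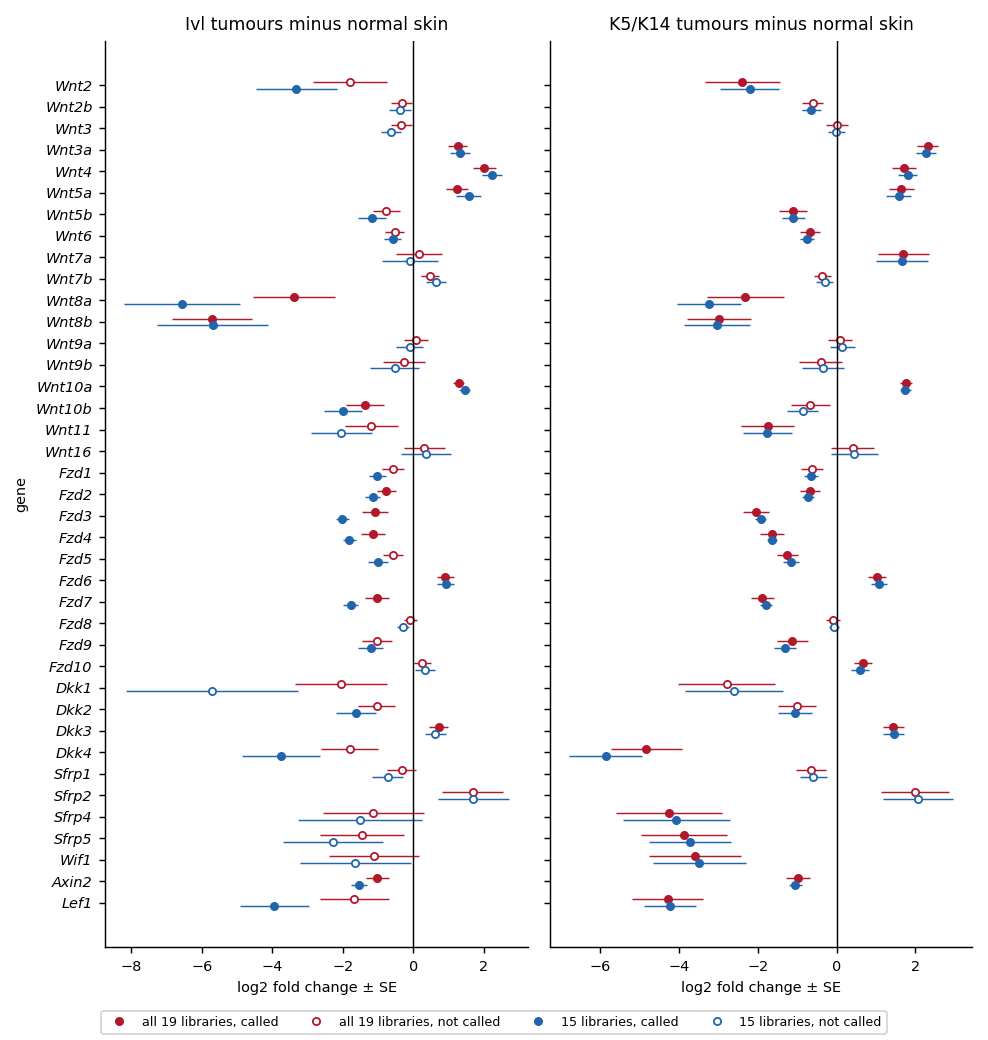
Log2 fold change ± SE against normal skin of the 39 Wnt genes tested, for Ivl (left) and K5/K14 tumours (right), over all 19 libraries (red) and over the 15 libraries outside the set of 4 (blue), with filled points for calls at an adjusted p under 0.05. In Ivl tumours Lef1, Fzd3, Fzd4 and Fzd7 lie further to the left over the 15 libraries, while in K5/K14 tumours the points of both fits lie close together except for Wnt8a and Dkk4.

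Set against each other, Ivl and K5/K14 tumours differed in 2 of the 39 Wnt genes, where 2.36% of all genes tested were called, 1.77% higher and 0.593% lower. None of the 39 had values apart between both tumour groups, as had 0.656% of all genes (0.312% higher in Ivl tumours, 0.343% lower). Wnt3a was lower in Ivl tumours, with a log2 difference, Ivl minus K5/K14, of −1.04 ± 0.22 (adjusted p = 0.0254). Ivl tumour 1, at 13.8 CPM, lay above K5 tumour 2, at 12.5 CPM, and the other 5 Ivl tumours lay below all K5/K14 tumours. Wnt7b, a ligand of basal keratinocytes and lung epithelium, was higher in Ivl tumours (0.83 ± 0.20, adjusted p = 0.0365). It stood at 9.8, 27.6, 23.5 and 16.1 CPM in skin, 19.7, 28.3 and 32.3 CPM in Ivl and 10.2, 14 and 21.5 CPM in K5/K14 tumours. Its values in skin spanned those of the K5/K14 tumours. Ivl tumours 1, 5 and 6, at 29.4, 30.4 and 32.3 CPM, lay above every skin sample. Over the 15 libraries both differences had the same direction and a like size (−0.94 ± 0.26 and 0.94 ± 0.24) without being called (adjusted p = 0.141 and 0.105), and edgeR called 0 of 39 there. An unadjusted p under 0.05 was reached by 8 of 39 and by 11.3% of all genes, and 0.41% of all genes were called, 0.213% higher and 0.197% lower. Over all 19 libraries 14 of 39 and 21.1% of all genes reached it, and DESeq2 called 8 of the 39, 4 higher and 4 lower, beside 8.09% of all genes with an adjusted p (5.22% higher, 2.87% lower). Leaving out K5 tumour 1 alone ended both calls (adjusted p = 0.0528 for Wnt3a and 0.0707 for Wnt7b), and leaving out K5 tumours 2, 3, 4 or 5, K14 tumours 3 or 4 or Ivl tumour 6 also ended that of Wnt7b (adjusted p from 0.0557 to 0.0694).

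The other named Wnt genes did not pass this comparison. Nearest to a call were Wnt10a (log2 difference −0.47 ± 0.13, adjusted p = 0.0535), Dkk4 (3.02 ± 0.92, adjusted p = 0.0775, on few counts) and Dkk3 (−0.72 ± 0.22, adjusted p = 0.0779). Lef1 had a log2 difference of 2.61 ± 0.82 (adjusted p = 0.0879) over all libraries and 0.28 ± 0.74 over the 15, Wif1 2.48 ± 1.07 (adjusted p = 0.191), Fzd3 0.95 ± 0.30 (adjusted p = 0.0884), Fzd7 0.85 ± 0.27 (adjusted p = 0.0892) and Axin2 −0.04 ± 0.27 (adjusted p = 0.975). The Frizzled differences came close to 0 over the 15 libraries, at −0.09 ± 0.16 for Fzd3 and 0.01 ± 0.18 for Fzd7.

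Between K5 and K14 tumours edgeR called 0 of the 39 Wnt genes and 0 of all genes tested, a background of 0%. At an unadjusted p under 0.05 there were 2, Wnt4 and Wnt16, beside 6.07% of all genes. DESeq2 also called 0 of the 39, where it called 1.06% of all genes with an adjusted p (0.343% higher in K5 tumours, 0.718% lower). The 15 libraries likewise gave 0 calls of 39, with 6 at an unadjusted p under 0.05, a level that 10.1% of all genes reached, while 0.0532% of all genes were called (0.0219% higher in K5 tumours, 0.0313% lower). Wnt4 was at 67.4, 91.3, 124, 124 and 88.1 CPM in K5 tumours 1 to 5 and at 148, 170, 229 and 167 CPM in K14 tumours 1 to 4. Those values did not overlap, and the log2 difference, K5 minus K14, was −0.85 ± 0.25 (adjusted p = 0.627; −0.74 ± 0.18 and 0.212 over the 15 libraries). Wnt10a, Fzd6 and Fzd7 also did not overlap, which makes 4 of 39 (1 higher in K5 tumours, 3 lower) beside 4.44% of all genes (2.04% higher, 2.4% lower), and these 5 genes are named for this comparison after their values were seen. For the targets the log2 differences were −0.22 ± 0.35 for Axin2 and −0.46 ± 1.08 for Lef1, and −0.74 for Wif1 (adjusted p = 0.997).

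The 54 further genes of the pathway moved in both directions. In K5/K14 tumours 34 were called against skin, 9 higher and 25 lower, and in Ivl tumours 22, 10 higher and 12 lower, with medians of −0.46 and −0.33 on the log2 scale. As shares, 63.0% and 40.7% were called, near the 62.2% and 35.9% of all genes. Under the size factors of DESeq2 the Ivl split was 8 higher and 18 lower, as the median of all genes moved by −0.13. Over the 15 libraries 39 were called in Ivl tumours, 10 higher and 29 lower, beside 54.9% of all genes, 22.2% higher and 32.7% lower.

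Porcn, the enzyme that attaches the lipid Wnt ligands need for secretion, rose in both groups. It stood at 15.6, 8.1, 10.4 and 11.2 CPM in skin, 16.7, 29.5 and 31.1 CPM in Ivl and 32.7, 46.3 and 63.6 CPM in K5/K14 tumours. The 3 groups did not overlap, with log2 fold changes of 1.25 ± 0.22 (adjusted p = 0.000158) and 2.04 ± 0.22 (adjusted p = 1.51e-06) and a difference between the tumour groups of −0.78 ± 0.17 (adjusted p = 0.0303, and 0.26 over the 15 libraries). Of the 9 other receptors on the list 2 were called higher and 5 lower in K5/K14 tumours, beside 23.2% and 38.9% of all genes. In Ivl tumours 2 were called higher and 4 lower, beside 20.4% and 15.5% of all genes. Ryk and Ptk7, which take part in signalling without beta-catenin, rose in both, Ryk by 0.55 ± 0.10 and 0.68 ± 0.09 and Ptk7 by 0.47 ± 0.15 and 0.97 ± 0.15 on the log2 scale in Ivl and K5/K14 tumours. Leaving out skin 2, 3 or 4 ended the Ivl call of Ptk7 (adjusted p from 0.0546 to 0.102). Ror1, a Wnt5a receptor that also signals without beta-catenin and is named here after its values were seen, fell in both: it held 7.68 to 13.5 CPM in skin and 2.37 to 3.94 CPM in K5/K14 tumours, with log2 fold changes of −1.89 there (adjusted p = 0.000258) and −1.19 in Ivl tumours (adjusted p = 0.0281), where Ivl tumour 3 lay within the skin range and the value without it was −1.81. That Ivl call of Ror1 ended in a fit of Ivl tumours and skin alone (adjusted p = 0.0898) and on leaving out any 1 of Ivl tumours 4 to 6 or of skin 1 and 3 (adjusted p from 0.0576 to 0.0798), and over the 15 libraries Ror1 fell by 1.99 on the log2 scale (adjusted p = 1.36e-05).

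Lrp6, Lgr4, Tcf7l2 and Rspo2, which serve the beta-catenin branch, fell. Lrp6, the main co-receptor, was at 162, 130, 150 and 151 CPM in skin, 57.7, 70.1 and 162 CPM in Ivl and 57.6, 70.7 and 77.5 CPM in K5/K14 tumours. Skin and K5/K14 tumours were separate, where Lrp6 was 2.15-fold lower (adjusted p = 0.000106), and in Ivl tumours it fell by 0.71 on the log2 scale (adjusted p = 0.0145), with Ivl tumour 2 at the level of skin. Lgr4, a receptor of the R-spondins that strengthen Wnt signals, fell by 2.42 on the log2 scale in K5/K14 tumours (adjusted p = 2.54e-05) and by 1.14 in Ivl tumours (adjusted p = 0.0343), where leaving out 1 of Ivl tumours 4 to 6 or of skin 1, 2 and 4 ended the call of Lgr4 (adjusted p from 0.0511 to 0.088). Tcf7l2, a TCF/LEF factor, fell by 1.71 (adjusted p = 4.81e-05) and 1.02 (adjusted p = 0.0145). In a fit of Ivl tumours and skin alone the Ivl calls of Lrp6 and Tcf7l2 ended (adjusted p = 0.062 and 0.0604). Rspo2, an R-spondin of the hair follicle's dermal papilla, had 2.89, 0.247, 1.61 and 0.205 CPM in skin and at most 0.241 CPM in any tumour, in K14 tumour 1, which lay above skin 4, and fell in both groups (adjusted p = 0.000347 in K5/K14 and 0.000806 in Ivl tumours). Of 5 dermal papilla markers 1 was called higher and 4 lower in K5/K14 tumours, beside 23.2% and 38.9% of all genes. In Ivl tumours 1 was called higher and 0 lower, beside 20.4% and 15.5%. The part of dermal papilla content in the value of Rspo2 was not tested.

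In the cytoplasm Dvl1, which relays the receptor signal, rose by 0.99 ± 0.15 and Gsk3a, a kinase that marks beta-catenin for destruction, by 1.33 ± 0.15 on the log2 scale in K5/K14 tumours. In Ivl tumours Dvl1 was 2-fold higher than skin (adjusted p = 6.05e-05) and Gsk3a rose by 1.16 ± 0.15 on the log2 scale, and neither gene's tumours overlapped skin. Notum, an enzyme that strips the lipid from Wnt ligands, was at 3.43, 7.18, 3.26 and 5.75 CPM in skin and at 0.111, 0.335 and 0.905 CPM in K5/K14 tumours, a fall of 3.67 on the log2 scale (adjusted p = 1.85e-05).

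Between the tumour groups 6 of the 54 were called over all 19 libraries, where 2.36% of all genes were, and 1, Dact1, over the 15, where 0.41% were. Dact1, which binds Dishevelled, was at 0.751, 1.35 and 4.5 CPM in Ivl tumours and 4.98, 5.92 and 10.7 CPM in K5/K14 tumours, with no overlap. Skin 1 to 4, at 3.02, 1.84, 7.85 and 6.65 CPM, overlapped both ranges, and Ivl tumours 1, 4, 5 and 6 lay below every skin sample. The log2 difference was −1.68 ± 0.39 (adjusted p = 0.0341), and −2.68 ± 0.38 (adjusted p = 0.00443) over the 15 libraries. Fibroblast markers were low in the same libraries: they summed to 1464 to 2671 CPM in Ivl tumours 1, 4, 5 and 6, with Dact1 at 0.751 to 1.66 CPM, to 3887 and 10716 CPM in Ivl tumours 2 and 3, the Ivl tumours highest for Dact1, and to 3756 to 14908 CPM in K5/K14 tumours. Of the 6 fibroblast markers 0 were called by edgeR between the tumour groups, with 2 at an unadjusted p under 0.05 (4 over the 15 libraries). Of all genes 21.1% reached that level, and 11.3% over the 15. The median log2 difference of the 6 markers was −1.04 (−1.73 over the 15). The part of fibroblast content in the value of Dact1 was not tested. Bambi, a decoy receptor and Wnt target, was higher in Ivl tumours by 2.27 ± 0.44 (adjusted p = 0.0196; 2.35 ± 0.51 and 0.07 over the 15 libraries). Notum (2.45 ± 0.50) and Lgr4 (1.28 ± 0.33) were higher and Porcn and Ptk7 (−0.50 ± 0.12) lower in Ivl tumours. No single library left out ended the calls of Bambi and Notum, but without Ivl tumour 1, at 6.99 CPM against 0.82 to 1.43 CPM in the other 5, the difference of Notum was 1.54 (adjusted p = 0.0382). Over the 15 libraries the differences of Notum and Lgr4 were 1.30 and 0.31 on the log2 scale and not called. Leaving out any 1 of K5 tumours 1 to 5, K14 tumours 3 and 4 or Ivl tumour 6 ended that of Dact1 (adjusted p from 0.0512 to 0.0657), and any 1 of K5 tumours 1, 3 and 4 or Ivl tumour 2 that of Porcn (adjusted p from 0.0505 to 0.0584). Leaving out 1 library ended the call of Ptk7 in 11 of 19 cases and that of Lgr4 in 16 of 19. Between K5 and K14 tumours edgeR called 0 of the 54, with 6 at an unadjusted p under 0.05 (11.1%, beside the 6.07% of all genes), and DESeq2 called 0.

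Counting by strand is not stated, and antisense transcripts share exon sequence with Wnt5a, Wnt7b, Wnt11, Fzd5, Fzd6, Sfrp2, Axin2 and Lef1, so reads of those partners cannot be told apart from theirs.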

How the data were processed

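The authors prepared poly(A) libraries with a strand-specific kit, trimmed paired-end reads with Trim Galore, checked them with FastQC 0.11.8, aligned them to GRCm38 with HISAT2 2.1.0, assigned them to genes with featureCounts (Subread 1.6.3) and removed a sequencing batch effect with ComBat-seq. The deposited values are therefore estimated counts, whole numbers that are not scaled for library size, although the test plan had assumed plain counts. Counting error is a lower bound on the error of any value, and intervals cover counting error alone. Of the gene IDs, 34672 matched GENCODE M21, which gave symbols, coordinates and exon lengths, and 135 did not.

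Genes that reached 5 counts in 1 or more libraries were tested (32031, with 2776 filtered) with edgeR 4.0.16 in R 4.3.3: TMM scaling, robust quasi-likelihood F tests, two-sided, Benjamini-Hochberg adjustment, 1 fit over 19 libraries with Ivl, K5/K14 and skin as groups, and a fit of 4 groups for K5 against K14. The code was tested on simulated data. DESeq2 1.42.0, other filters and scalings, the 15 libraries outside the set of 4, that set as a covariate, a replicate block, fits of the groups compared alone, and leaving out each library were the alternatives. Within groups the smallest chi-square per degree of freedom between 2 libraries was 25.9, so none was a copy. The genes, the pathway list, the marker lists and the rule for named genes were chosen with earlier results of these data known. That rule names up to 5 Wnt genes and 3 pathway genes per direction and comparison by smallest adjusted p, any Wnt gene called over the 15 libraries between tumour groups, and Axin2, Lef1 and Wif1 throughout.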

Additional observations from a re-analysis of the deposited data

Results flagged for a closer look

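Single libraries lay far from the rest of their group, by Dixon's 95% limit, in 9 of 47 groups of values tried. That limit supposes normally spread values, of which about 1 in 20 groups would pass it. Groups mostly at 0, such as Dkk4 and Wnt8b in K5/K14 tumours, do not meet this. The 9 of 47 was therefore not read as an excess. K14 tumour 1 was highest of the 9 K5/K14 tumours for Lef1 (2.69 CPM, the others 0.392 to 1.34 CPM) and Wif1 (5.15 CPM, the others 0.13 to 2.15 CPM), and it was also the K5/K14 tumour with the highest sum of hair shaft and matrix markers. K5 tumour 1, one of the set of 4, was lowest for Fzd3 (2.00 CPM, the others 5.51 to 8.21 CPM) and Fzd5 (5.12 CPM, the others 10.8 to 14.7 CPM), and was the one K5/K14 tumour with a Dkk4 count (0.0159 CPM). Dkk3 was high in Ivl tumour 3 (86.7 CPM, the others 40.2 to 54.9 CPM) and in K5 tumour 4 (141 CPM, the others 68.7 to 100 CPM). Ivl tumour 3 was also high for Dkk4 (0.138 CPM, the others at most 0.0234 CPM), and K5 tumour 4 for Wnt8b (0.07 CPM, the others at most 0.0201 CPM). The cause of these single values was not tested.

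The change against skin differed between Ivl and K5/K14 tumours, by edgeR's test of the difference between both tumour groups, for 2 Wnt genes and 6 genes of the pathway list. The log2 differences, Ivl minus K5/K14, were −1.04 for Wnt3a, 0.83 for Wnt7b, −0.78 for Porcn, −0.50 for Ptk7, 1.28 for Lgr4, 2.45 for Notum, −1.68 for Dact1 and 2.27 for Bambi. Over the 15 libraries outside the set of 4 the call of Dact1 remained and those of the other 7 did not.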

How the results depend on the processing

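The counts of calls in K5/K14 tumours against skin and between K5 and K14 tumours stayed within 1.5 times of those given under all alternatives, and no difference of a named gene called over all 19 libraries changed direction. Differences that were not called could: between Ivl and K5/K14 tumours those of Fzd3 and Fzd4 were 0.95 and 0.51 over all libraries and −0.09 and −0.18 over the 15. In a fit of Ivl tumours and skin alone the calls of Axin2, Fzd3, Fzd4, Dkk3, Lrp6, Tcf7l2, Dact1, Ptk7 and Ror1 ended (adjusted p from 0.0511 to 0.141), and with the replicate block those of Axin2, Fzd3, Fzd7, Lrp6, Lgr4, Dact1 and Ror1 did (adjusted p from 0.0517 to 0.118). In Ivl tumours against skin the 14 calls became 22 over the 15 libraries, 8 with the replicate block and 8 in a fit of the groups compared alone, and 8 to 17 with 1 library left out (8 without skin 1, 9 without Ivl tumour 4 or 6). For the pathway list the 22 became 39, 12 and 10 in the same order, and 14 to 29 with 1 library left out (14 without Ivl tumour 5). Between Ivl and K5/K14 tumours the 2 calls became 8 with DESeq2, 0 over the 15 libraries, 0 with the replicate block, 4 in a fit of the groups compared alone and 0 to 5 with 1 library left out (0 without K5 tumour 1, 5 without Ivl tumour 5), and the 6 pathway calls became 1 over the 15 libraries, 3 with the set of 4 as a covariate, 0 with the block and 2 to 6 with 1 library left out. The replicate numbers were not taken to pair the samples: 25 same-numbered pairs had correlations of deviations from −0.39 to 0.47 (median −0.056), and 4 of 18 samples correlated best with their own number. With DESeq2's size factors 5712 genes were called higher and 6828 lower in Ivl tumours against skin, beside 6535 and 4980 with TMM. Wnt8a, Wnt8b, Dkk1 and Dkk4 rest on few counts, which limits their fold changes. The cause of these shifts was not tested.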
